A study of Mus musculus with 6 samples.

Results

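The genes described here are the nuclear genes of the mitochondrial ribosome, the respiratory chain and mitochondrial protein import whose values were deposited for virus-specific CD8+ T cells. They were chosen by symbol from the deposited table, with the patterns Mrpl, Mrps, Nduf, Uqcr, Cox, Atp5, Timm, Tomm, Slc25a, Phb and Vdac, 10 named factors and chaperones, and any symbol ending in s2. The rule took 33 of the 1018 genes in the table. Of these, 28 belonged to a mitochondrial family, and 5 (Cers2, Gins2, Haus2, Ptges2 and Sephs2) were matched only by the ending s2 and encode other proteins. The ending was included for the mitochondrial aminoacyl-tRNA synthetases, of which 0 of 17 were in the table.

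The cells were sorted from the spleen 7 days after infection with murine cytomegalovirus (MCMV), as CD8+ T cells stained by an MHC tetramer that displays the viral M45 peptide. They came from 3 WT mice and 3 JHT mice, all infected and all on the C57BL/6J background. JHT mice lack B cells from birth because the JH segments needed to assemble an antibody heavy chain gene are deleted, so every tissue of the host develops without B cells and the deletion is not confined to the T cells studied. The study used adult mice of both sexes with littermate controls, and equal numbers of tetramer+ cells were sorted from each group. The libraries are named WT-1 to WT-3 and JHT-1 to JHT-3, and the comparison asked how the transcriptome of these T cells differs between hosts with and without B cells.

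Mitochondria make ATP by passing electrons along the respiratory chain complexes and letting the proton gradient drive ATP synthase. A few core subunits are encoded by mitochondrial DNA and made on the mitochondrial ribosome, whereas all ribosomal proteins of the organelle, most chain subunits and the import machinery are encoded in the nucleus. Activated CD8+ T cells are known to enlarge this machinery while they divide and become effector cells.

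All 33 genes had higher values in JHT than in WT cells. The ratio of group means ran from 2.12 for Mrps30 to 9.92 for Mrps2, with a median of 2.87 over the 33 genes and 2.83 over the 28 mitochondrial genes. The median over all 983 genes of the table that were higher in JHT was 2.93. In each of the 33 genes the lowest JHT value lay above the highest WT value, by a factor that was smallest in Mrpl38, at 1.10. The table itself fixes much of this: every one of its 1018 genes had a p under 0.05 in an equal-variance test on the untransformed values and a fold change of at least 2 between these same libraries, so the differences are given as a description of the listed genes. The groups of all 1018 genes were without overlap. The 3 genes closest to the limit of 2-fold were Mrps30 (2.12), Mrpl28 (2.14) and Mrpl17 (2.15), and genes below it were not analysed here.

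By limma on log2(value + 1), 33 of the 33 genes passed an adjusted p of 0.05 as higher in JHT, where 96.6% of all tested genes did so. Their adjusted p-values in limma ran from 1.91e-08 for Tufm to 0.00774 for Mrps30, and the median log2 change was 1.53 against 1.47 over all tested genes. These p-values are conditional on the selection of the table, and an exact two-sided permutation test of 3 against 3 mice cannot go below 0.1. When every library was scaled to the same median over the listed genes, 0 of the 33 passed in limma (2.06% of all tested genes were then called higher), 5 had an unadjusted p under 0.05, 21 stayed higher and 12 turned lower. With quantile normalization 0 passed in limma (2.55% of all tested genes), 3 had an unadjusted p under 0.05, 22 stayed higher and 11 turned lower. The shares of all tested genes for the unadjusted p and for the direction were not computed. The median log2 change of all tested genes was then 0.032 and 0.027, in that order, so a split to both sides of 0 is built into these scalings. Both rescalings remove a rise shared by the listed genes, whatever its source. They moved the split of all calls from 983 higher and 35 lower to 21 and 35 or 26 and 34.

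The share of each family that reached the table differed. In the GENCODE M21 annotation of GRCm38, 28 of 280 protein-coding genes with a mitochondrial symbol of the rule (10%) were listed, against 966 of 21924 protein-coding genes (4.41%). The prohibitins and porins had 3 of 5 genes in the table, the mitochondrial elongation factors 2 of 4, and complex III 2 of 8 (25.0%). The large subunit of the mitochondrial ribosome had 8 of 49 (16.3%), the small subunit 3 of 29 (10.3%), ATP synthase 2 of 17 (11.8%), complex I 3 of 46 (6.52%) and the carrier family 2 of 47 (4.26%). Complex IV had 0 of 27 symbols in the table, a pattern that also takes in isoforms and assembly factors. A gene not listed may have missed either limit or had too few reads, and these cannot be told apart here. The 21924 genes include any that these cells do not express. The share among expressed genes cannot be given from a table of selected genes.

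**Figure D1:**
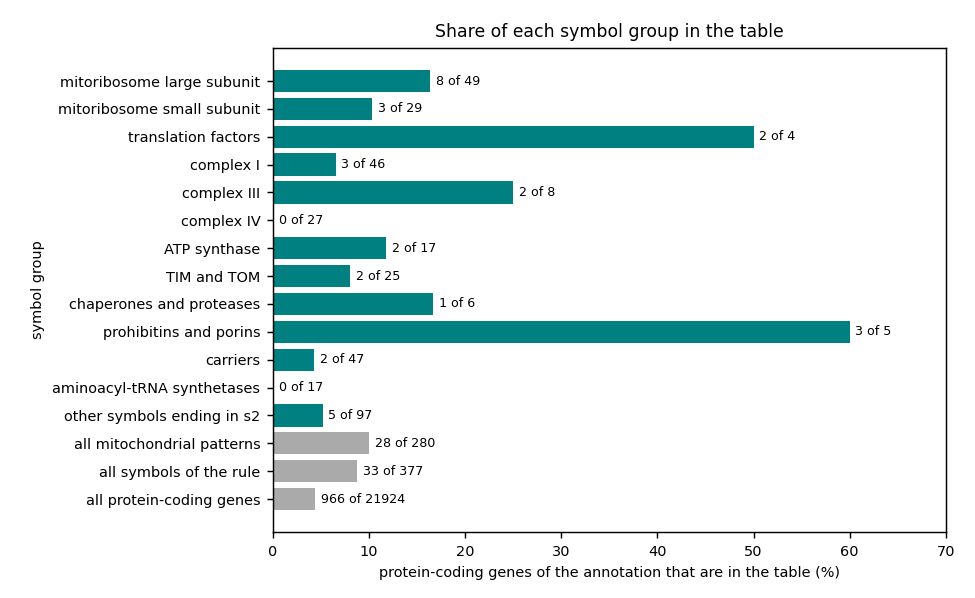
Bars give the percentage of protein-coding genes of each symbol group in the annotation that are in the deposited table, with the counts beside them; grey bars are sums over groups. Prohibitins and porins (3 of 5) had the longest bar and complex IV (0 of 27) and the mitochondrial aminoacyl-tRNA synthetases (0 of 17) had none.

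Among the 8 listed genes of the large subunit of the mitochondrial ribosome, ratios lay close together, between 2.14 and 2.87 with a median of 2.70. Values here and below are the deposited expression values, which are scaled for gene length and library. Mrpl28, the most abundant of the 8, had values of 73.1, 132 and 104 in the WT mice and of 166, 228 and 268 in the JHT mice, numbered 1 to 3 in order here and below (ratio 2.14). The WT-2 value came within a factor of 1.26 of the lowest JHT value. Mrpl4, whose bacterial counterpart lines the exit tunnel, had values of 24.3, 57.5 and 46.9 in WT and 92.1, 109 and 152 in JHT (ratio 2.75). Mrpl37, a protein specific to mitochondrial ribosomes, had values of 10.8, 38.2 and 18.4 in WT and 51.3, 57.7 and 69.1 in JHT. Its ratio of 2.64 rose to 4.07 without WT-2, the highest of its WT libraries. The other 5 were Mrpl10 (ratio 2.87), at the base of the stalk that recruits elongation factors, Mrpl2 (2.83), next to the peptidyl transferase centre, Mrpl45 (2.83), which anchors the human ribosome to the inner membrane, Mrpl38 (2.55), another mitochondria-specific protein, and Mrpl17 (2.15), near the tunnel exit.

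Sequences before the start of some of the listed genes are shown for exact matches to motifs of factors known to act on nuclear genes for mitochondrial proteins. For NRF1, a factor known for such genes, the letters CGCNTGCGC were searched on both strands of the window from 250 bases before to 50 bases after each RefSeq start (GRCm38.p6). Mrpl17 and Mrpl45 each held more than 1 match, and the last 120 bases before their starts are printed 5′ to 3′ on the strand of the gene, with matches on either strand in capitals. The stretch of Mrpl17 is chr7:105811088-105811207 on the minus strand and that of Mrpl45 is chr11:97315596-97315715 on the plus strand.
Mrpl17: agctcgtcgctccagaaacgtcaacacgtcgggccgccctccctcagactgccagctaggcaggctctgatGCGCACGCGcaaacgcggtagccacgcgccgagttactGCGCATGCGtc
Mrpl45: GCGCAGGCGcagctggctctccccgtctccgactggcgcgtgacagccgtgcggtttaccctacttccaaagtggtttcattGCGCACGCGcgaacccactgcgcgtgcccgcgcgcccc

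The small subunit symbols held both the smallest and the largest ratio. Mrps18b, one of several mammalian versions of a bacterial small subunit protein, had values of 28.0, 49.5 and 64.9 in WT and 98.8, 118 and 166 in JHT (ratio 2.69). Mrps30 had values of 18.3, 35.8 and 28.9 in WT and 45.3, 54.3 and 76.2 in JHT, the smallest ratio of the 33 at 2.12. Its human protein is found in the large subunit despite the symbol. Without JHT-3 its log2 change was 0.87 and the adjusted p in limma 0.0598. Mrps2, a core protein of the small subunit (chr2:28468066-28471178, plus strand), had values of 0.0611, 1.82 and 0.269 in WT and 5.76, 5.31 and 10.2 in JHT. Its WT values rested on 3, 102 and 16 recovered reads against 314, 374 and 551 in JHT, and the ratio of 9.92 became 43.0 without WT-2. Among the 983 higher genes the Mrps2 ratio stood at the 98.4th percentile and the Mrps30 ratio at the 7.43rd.

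Both translation factors taken by the symbol rule, Tufm and Tsfm, lay above the median of the 33 genes. Tufm, the elongation factor that brings aminoacyl-tRNA to the ribosome, had values of 4.09, 1.69 and 10.6 in WT and 28.3, 25.3 and 32.5 in JHT. Its log2 change of 2.45 ± 0.39 (SE, n = 3 and 3) was the largest of the 33 on that scale. The ratio of 5.26 was 9.91 without WT-3, the highest of its WT libraries. Tsfm, which recharges Tufm with GTP, had values of 10.6, 19.9 and 19.9 in WT and 39.2, 54.5 and 70.02 in JHT (ratio 3.25).

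**Figure D2:**
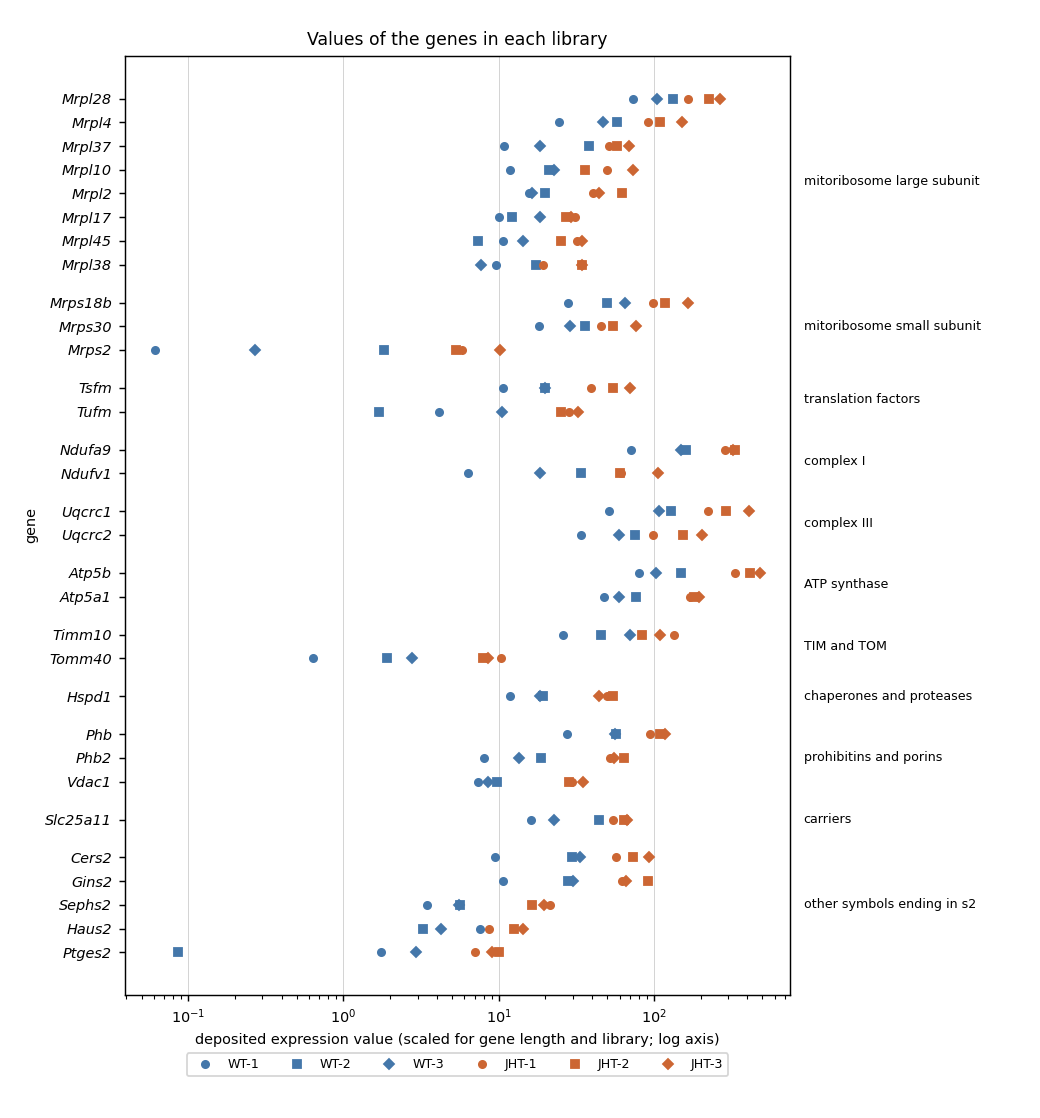
Each row is 1 of 31 of the genes, grouped by role, and each point is the deposited expression value of 1 library on a log axis (WT blue, JHT orange; circle, square and diamond are mouse 1, 2 and 3). In every row the 3 JHT points lie to the right of the 3 WT points, and WT-1 is the lowest point in 26 of 31 rows.

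In complex I, which takes electrons from NADH, the listed genes differed in ratio. Ndufa9, an accessory subunit, had values of 71.1, 161 and 149 in WT and 288, 334 and 322 in JHT (ratio 2.48), and was the most abundant of the 28 genes in WT. Ndufv1, the core subunit that binds NADH and carries the flavin, had values of 6.34, 34.1 and 18.3 in WT and 61.0, 60.1 and 107 in JHT. The WT values of Ndufv1 spread more widely around their mean, in relative terms, than those of Ndufa9, and its ratio of 3.88 became 6.16 without WT-2.

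Complex III, which passes electrons from ubiquinol to cytochrome c, was represented by its core proteins. Uqcrc1 had values of 51.3, 129 and 108 in WT and 224, 290.1 and 412 in JHT (ratio 3.21). Uqcrc2 had values of 33.9, 75.2 and 59.7 in WT and 98.0, 155 and 204 in JHT (ratio 2.70). In both genes WT-1 was the lowest and JHT-3 the highest library.

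ATP synthase was represented by the subunits of its catalytic head. Atp5b, the catalytic beta subunit (chr10:128083273-128090391, plus strand), had values of 80.1, 149.7 and 103 in WT and 331, 418 and 483 in JHT. Its mean rose from 111 ± 35.5 to 411 ± 76.4 (SD, n = 3 and 3), a ratio of 3.70, and it was the most abundant of the 28 genes in JHT. Atp5a1, the alpha subunit, had values of 47.7, 76.6 and 59.6 in WT and 170.5, 182 and 196 in JHT (ratio 2.99). The order of mean levels over the 28 genes was nearly the same in both groups (Spearman's rho 0.974 across genes of the same libraries, a description). Atp5b and Ndufa9 exchanged the first places. Neighbours in the order overlapped in their library values in 27 of 27 pairs in WT and 23 of 27 in JHT, where Mrpl2 and Vdac1 were among the neighbours that did not.

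The import genes were a channel of the outer membrane and a chaperone of the intermembrane space. Tomm40, the channel of the outer membrane through which nearly all imported proteins pass (chr7:19701313-19715438, minus strand), had values of 0.632, 1.91 and 2.75 in WT and 10.3, 7.95 and 8.55 in JHT. The ratio was 5.07, and the WT values rested on 22, 76 and 116 reads. Timm10, a small chaperone that carries hydrophobic precursors across the intermembrane space, had values of 26.0, 45.8 and 70.3 in WT and 135, 83.7 and 109.8 in JHT (ratio 2.31). The highest WT value of Timm10 came within a factor of 1.19 of its lowest JHT value.

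Hspd1, the chaperonin that folds imported proteins in the matrix, had values of 11.8, 19.4 and 18.4 in WT and 50.1, 54.5 and 44.5 in JHT (ratio 3.01). The annotation holds 5 pseudogenes named after Hspd1, and how shared reads were assigned is not given in the sources used here. Hspe1, its co-chaperonin, shares 112 bases with it on the opposite strand and was not listed. Phb2, a scaffold protein of the inner membrane, had values of 8.05, 18.9 and 13.5 in WT and 52.3, 63.8 and 54.9 in JHT (ratio 4.23). Phb, its partner in the same ring complexes, had values of 27.6, 57.1 and 55.7 in WT and 94.9, 109.6 and 118 in JHT (ratio 2.30). Vdac1, the main metabolite pore of the outer membrane, had values of 7.35, 9.79 and 8.58 in WT and 29.8, 28.5 and 35.1 in JHT. With a ratio of 3.63 and narrow spread in both groups, Vdac1 kept its lowest JHT value 2.92 times above its highest WT value.

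The stretch before the first of 2 RefSeq starts of Hspd1 held a match to the NRF1 motif and an E-box (CACGTG, bound by MYC and USF factors), and those of Phb2 and Timm10 held the ETS core CCGGAAG, which GABP binds. The window of the second Hspd1 start held 0 NRF1 and 0 E-box matches and 2 ETS cores, none of them in the 120 bases before that start. Capitals mark the matches on either strand in the 120 bases before the start of each gene (the first for Hspd1). Hspd1 is chr1:55088244-55088363 on the minus strand, Phb2 is chr6:124712169-124712288 on the plus strand and Timm10 is chr2:84826901-84827020 on the plus strand.
Hspd1: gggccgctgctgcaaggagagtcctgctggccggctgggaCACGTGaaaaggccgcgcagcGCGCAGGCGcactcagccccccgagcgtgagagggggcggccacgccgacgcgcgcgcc
Phb2: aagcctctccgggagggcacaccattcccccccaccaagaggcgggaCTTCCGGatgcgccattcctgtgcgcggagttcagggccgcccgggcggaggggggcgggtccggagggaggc
Timm10: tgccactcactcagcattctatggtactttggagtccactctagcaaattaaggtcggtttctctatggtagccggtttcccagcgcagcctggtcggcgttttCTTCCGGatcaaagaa

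The carriers of the inner membrane move metabolites into and out of the matrix. Slc25a11, which exchanges oxoglutarate for malate, had values of 16.2, 44.1 and 22.6 in WT and 54.8, 64.6 and 67.1 in JHT (ratio 2.25). The WT-2 value came within a factor of 1.24 of the lowest JHT value.

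The 5 genes matched only by the ending s2 had ratios of 2.34 to 5.48. Cers2, which makes ceramides with very long acyl chains, had values of 9.51, 29.6 and 33.4 in WT and 56.9, 73.1 and 93.3 in JHT (ratio 3.08). Gins2, a part of the replicative helicase, had values of 10.7, 27.9 and 30.2 in WT and 62.0, 91.4 and 66.2 in JHT (ratio 3.19). Sephs2, which makes the selenium donor for selenocysteine, had values of 3.47, 5.64 and 5.54 in WT and 21.3, 16.3 and 19.7 in JHT (ratio 3.91). These 3 genes serve different processes and share only the ending of their symbols. Haus2, of the augmin complex of the spindle, had the smallest ratio of the 5 at 2.34. Ptges2, a prostaglandin E synthase, had the largest at 5.48, with 71, 4 and 146 reads in WT, and 9.56 without WT-3.

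**Figure D3:**
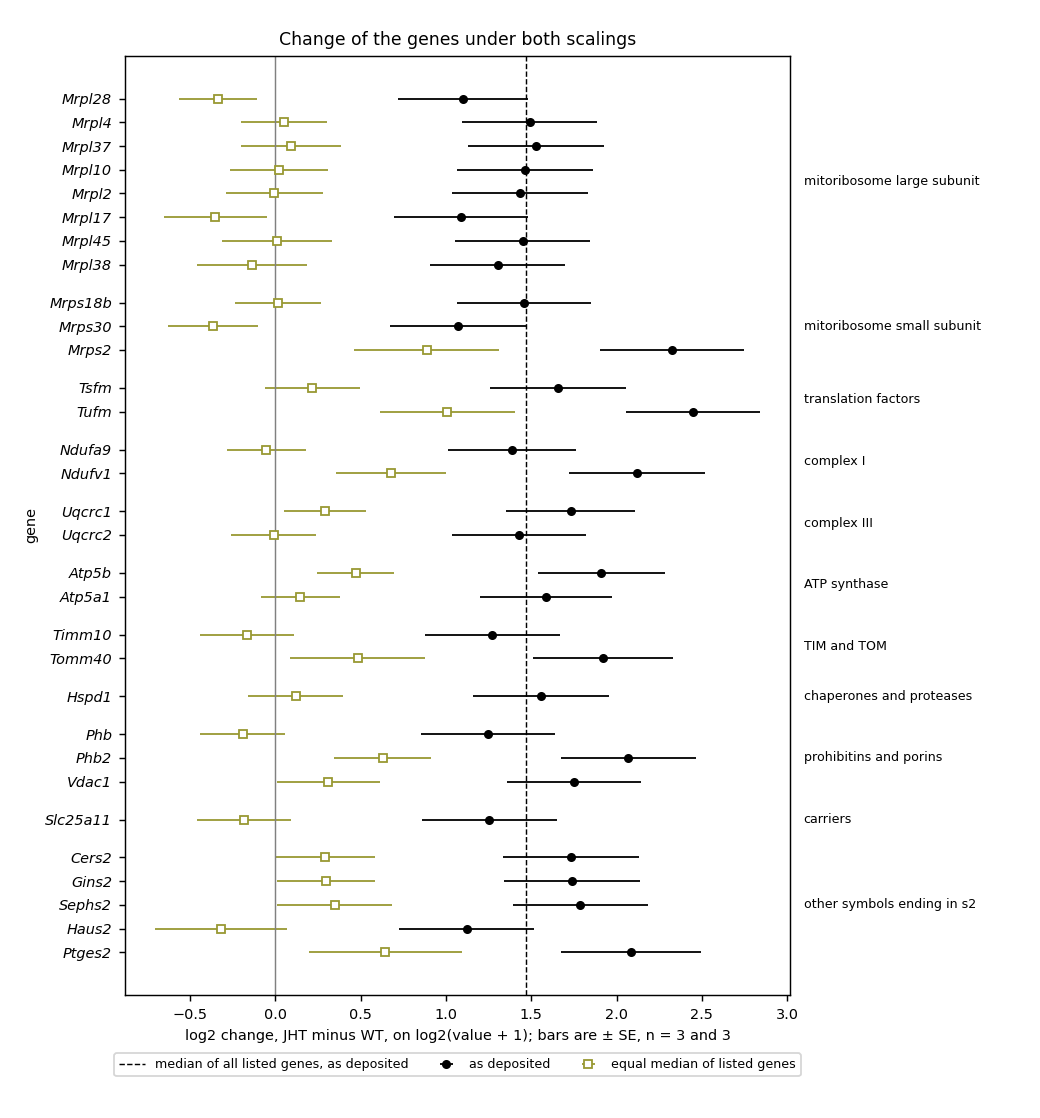
Each row is 1 of 31 of the genes; points give the log2 change of JHT minus WT on log2(value + 1) with its SE from limma, as deposited (black) and with every library scaled to the same median over the listed genes (open squares), and the dashed line is the median of all 1018 genes as deposited, 1.47. As deposited the points lie from 1.07 to 2.45, and after rescaling 20 lie above and 11 below 0.

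Ratios of functionally linked genes within a library do not depend on how the library was scaled. The 6 pairs used here were formed among the listed genes after it was known which genes were listed, so they are a description. The ratio of Phb2 over Phb was 0.292, 0.330 and 0.243 in WT and 0.551, 0.582 and 0.465 in JHT, with no overlap between the groups. Tomm40 over Timm10 was 0.0243, 0.0417 and 0.0391 in WT and 0.0767, 0.0951 and 0.0779 in JHT, also with no overlap. Uqcrc1 over Uqcrc2 was 1.51, 1.71 and 1.81 in WT and 2.28, 1.88 and 2.02 in JHT, so that the groups were separate but close. The groups overlapped for the other 3 pairs: Atp5b over Atp5a1 (means 1.79 and 2.23), Tufm over Tsfm (0.334 and 0.550) and Mrpl28 over Mrps18b (2.29 and 1.74). In the pairs without overlap the ratio of the partners differed between these libraries, a statement about the ratio and not about which partner changed. The share of all pairs of listed genes without overlap was not computed. An exact two-sided permutation test of 3 against 3 libraries cannot go below 0.1. The WT values of Tomm40 rested on 22, 76 and 116 reads.

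**Figure D4:**
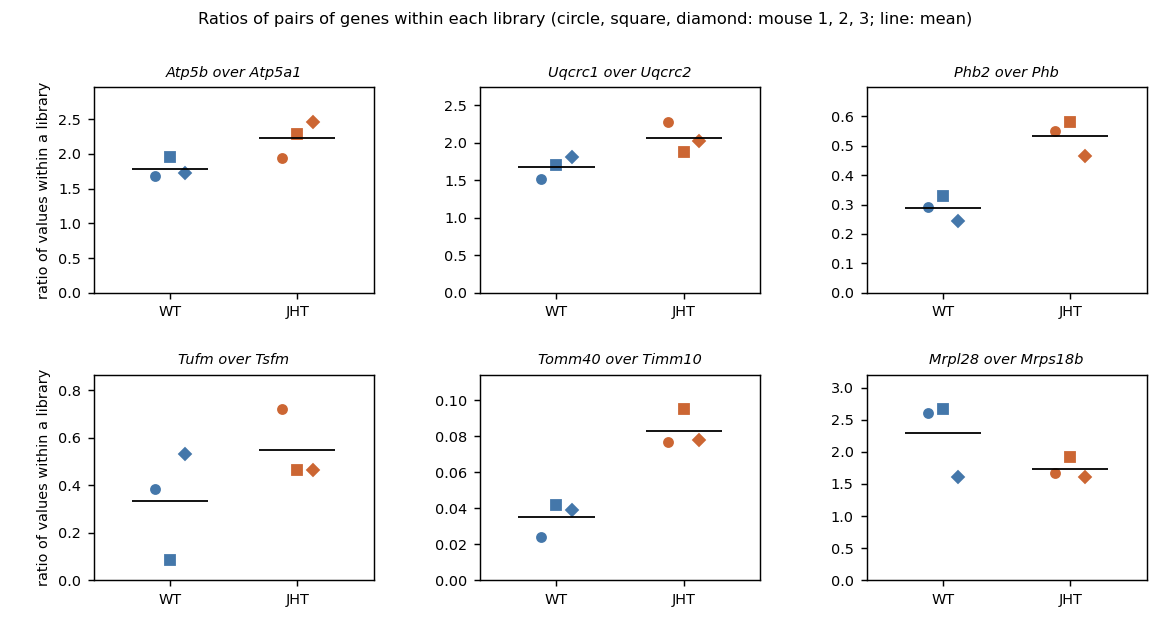
Each panel shows the ratio of the deposited values of a pair of genes in each library on an axis from 0 (WT blue, JHT orange; circle, square and diamond are mouse 1, 2 and 3; the line is the mean of 3). Phb2 over Phb, Tomm40 over Timm10 and Uqcrc1 over Uqcrc2 are without overlap between WT and JHT.

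WT-1 was the low library for most of these genes. It was the lowest WT library in 28 of the 33 genes and in 25 of the 28 mitochondrial genes (89.3%), against 647 of the 983 higher genes (65.8%). The 33 genes together made up 0.634%, 1.33% and 1.03% of the summed value of the table in WT and 2.11%, 2.31% and 2.71% in JHT. The summed value itself was 105810, 101600 and 113806 in WT and 121001, 128530 and 129800 in JHT. The shares of other sets of higher genes were not computed, so the gain is not shown to be particular to the 33. Without WT-1 the median ratio was 2.61 over the 33 genes, 2.52 over the 28 and 2.59 over all higher genes. The spread relative to the mean was larger in WT than in JHT in 31 of the 33 genes, with a median coefficient of variation of 38.6% and 18.6%. Over the 983 higher genes it was larger in WT in 758, with medians of 37.3% and 23.1%. Whole reads were reconstructed from ratios of the values between libraries, as the smallest whole numbers that fit. For the 33 genes they summed to 24062, 53815 and 49444 in WT and 101438, 151425 and 136977 in JHT. The depth of each library is unknown, and in bulk samples fewer cells of a type and less RNA per cell cannot be told apart.

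Genes outside the symbol rule were taken from lists of other mitochondrial functions made from textbook knowledge. Of all protein-coding genes, expressed in these cells or not, 4.41% were listed, and the share among expressed genes is not known. Of the 1018 listed genes 983 were higher in JHT, so a listed gene was higher almost by default. A short list with no listed gene is near the 4.41%. Of complex II, cytochrome c and its partner, 3 of 10 genes were in the table, each higher in JHT: Sdha (ratio 3.21), the catalytic subunit of succinate dehydrogenase, Sdhaf1 (2.37), its assembly factor, and Cyc1 (2.36), cytochrome c1 of complex III. Of import and processing, 6 of 15 were listed and higher, led by Samm50 (ratio 4.77), which inserts barrel proteins into the outer membrane, with values of 4.06, 13.1 and 12.6 in WT and 44.0, 43.4 and 55.1 in JHT. Pmpca (3.99) and Pmpcb (2.08), the subunits of the protease that removes targeting sequences, Mtx1 (2.83), Oxa1l (2.41) and Chchd4 (2.08) were the other 5. Of ribosome assembly and translation, 4 of 18 were higher (Mtg2 4.74, C1qbp 3.56, Mtg1 2.67 and Mtif3 2.45), and of quality control 2 of 9, Trap1 (3.26), a chaperone of the matrix, and Hspa14 (3.46), which the list held although it is a cytosolic chaperone bound to ribosomes and not a mitochondrial protein. No gene was listed of 15 for DNA and RNA of the organelle or of 9 regulators, which included Nrf1, Gabpa, Yy1 and Myc.

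The organelle's own genome was represented in the table by a ribosomal RNA only. Of 37 genes encoded by mitochondrial DNA, only mt-Rnr1, the RNA of the small ribosomal subunit, was in the table. Its values were 817, 649 and 509 in WT and 376, 185 and 245 in JHT, so it was 2.45-fold higher in WT. It was among the 35 of 1018 listed genes that were lower in JHT. How well these libraries capture a ribosomal RNA was not tested, and the direction of the unlisted genes of mitochondrial DNA is not known. A balance between nuclear and mitochondrial genes was therefore not tested. Of cell type markers, Lck (ratio 2.29) was listed of 5 for CD8 T cells and Bpgm (3.03) of 5 for erythroid cells. None was listed of 5 for B cells, 4 for NK cells, 5 for myeloid cells, 4 for dendritic cells and 2 for CD4 T cells, so the table gave little check of the sorted population, and the part of other cells in these results was not tested.

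Promoter motifs are given as shares of the mitochondrial genes, of all listed genes (which include them) and of all protein-coding genes, with no test of the differences. RefSeq starts were at hand for 26 of the 33 genes and 22 of the 28 mitochondrial genes, with Atp5a1, Uqcrc2, Mrpl38, Mrpl4 and Gins2 among those without. The NRF1 letters CGCNTGCGC were found in 7 of 22 (31.8%): Hspd1, Mrpl10, Mrpl17, Mrpl45, Mrps18b, Phb and Uqcrc1. They were found in 19.1% of 794 listed genes and 9.63% of 17492 protein-coding genes. The ETS core CCGGAAG was in 31.8%, against 27.0% and 12.9%, and the E-box CACGTG in 27.3%, against 14.1% and 8.91%. YY1 letters (AAGATGGCG) were in Mrpl37 and Ndufa9 (9.09%, against 5.16% and 2.14%), in neither wholly before the start, and the ERR motif AAGGTCA was also in 9.09%, against 4.41% and 4.73%. The GC box GGGCGGG was in 50%, against 54.0% and 36.9%, and the CCAAT box in 45.5%, against 46.6% and 42.3%. All were searched on both strands, no motif contains another, and a gene counted once if any of its starts held a match. The 22 genes, the listed genes and all protein-coding genes had a median CpG observed-to-expected ratio of 0.855, 0.7996 and 0.576, and its part in the shares of motifs that contain CpG was not tested. A match describes letters and is not evidence of binding.

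**Figure D5:**
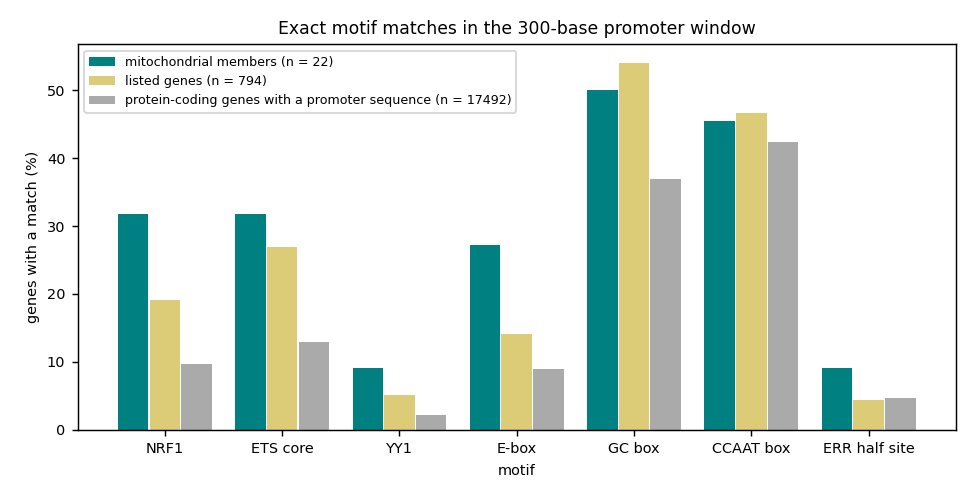
Bars give the percentage of genes with at least 1 exact match on either strand in the 300-base window around a RefSeq start, for 22 mitochondrial genes of the list, 794 listed genes and 17492 protein-coding genes. For NRF1 the bars are 31.8%, 19.1% and 9.63%, and for the CCAAT box 45.5%, 46.6% and 42.3%.

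The 33 genes lie on 14 chromosomes. A protein-coding neighbour was counted if it runs on the opposite strand and starts within 1000 bases before the gene's own start. Pairs that overlap at their 5′ ends did not meet this rule. Such a neighbour was found for 5 of the 28 mitochondrial genes (17.9%), against 14.1% of listed and 6.79% of all protein-coding genes. The starts were 45 bases apart for Mrps18b and Ppp1r10, 120 for Mrpl37 and Cyb5rl, 153 for Mrpl10 and Lrrc46, 158 for Phb2 and Emg1 and 207 for Mrpl2 and Klc4. None of these 5 neighbours was listed. Of the 33 genes, 10 others overlap a protein-coding gene on the opposite strand (among them Atp5a1, Uqcrc2, Tsfm, Mrps30 and Gins2), and reads of such pairs cannot be told apart without strand.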

How the data were processed

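RNA of sorted M45 tetramer+ CD8+ T cells was purified with an RNeasy Plus Micro kit, amplified with SMART-Seq v4 and made into Nextera XT libraries, which do not mark strand. The authors trimmed adaptors and ran the default RNA-Seq analysis of CLC Genomics Workbench on GRCm38, with an annotation not given in the sources used here. For each gene, the table deposited by the authors gives an expression signal in every library, scaled for library and gene length, and does not say whether this is RPKM or TPM. The authors' deposited p-value, FDR, fold, log2 fold and −log10 p-value columns were not used. Samples were grouped by title, each from a separate mouse, and 0 per-sample columns were left without a sample.

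Whole reads were recovered for 1018 of 1018 genes within 0.001, from ratios between libraries. They are the smallest whole numbers that fit, so the true counts may be higher. Values were compared as log2(value + 1), which understates the change of low genes, with limma 3.58.1 in R 4.3.3 (trended variance, at least 1 in at least 3 libraries, Benjamini-Hochberg 0.05, two-sided). The procedure was tested on simulated data. Ratios are of group means of the deposited values. Members, roles, lists and motifs were chosen with earlier results of these data known. By rule, members were named (2 are counted but not reported one by one), and the 3 of each role with the highest mean and those with the largest and smallest ratio were given in every library. Genes outside the rule were named from the lists only, besides the neighbouring genes and Hspe1, which were chosen after the data were seen. Alternatives were the scaling, pseudocount, filter, variance model, replicate block, left-out libraries and promoter window. Coordinates are from GENCODE M21 and promoter sequences from RefSeq (GRCm38.p6). Protein sequences were not analysed here.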

Additional observations from a re-analysis of the deposited data

How the results depend on the processing

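Over the 33 genes, pseudocounts of 0.1 and 10, no filter, no trended variance and the replicate block each left 33 called in limma. Each of these settings also called 983 of all 1018 genes higher, so these counts follow the selection of the table. The median log2 change was 1.53 with the replicate block. Deviations of WT and JHT libraries with the same number correlated at 0.168, 0.0305 and 0.107, and those with different numbers at -0.133 to 0.0306. WT-2 was marginally closer to JHT-3 than to JHT-2. The sample titles state no pairing of mice by number, and these small correlations cannot decide it. Leaving out each library in turn left 32 to 33 called, with a median of 1.34 to 1.68. The gene lost, without JHT-3, was Mrps30. Of all tested genes, these fits called from 923 of 1008 (without JHT-3) to 976 of 1017 (without WT-2) higher. For the 5 genes ending in s2 the range was 1.41 to 1.99. A minimum of 5 in every library left genes such as Haus2, Mrps2, Ptges2, Sephs2, Tomm40 and Tufm untested, and the other 26 called. Of all 570 genes then tested, 554 were called higher.

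With an equal median and with quantile normalization 0 and 0 were called. Median log2 changes, in that order, were then 0.0905 and 0.13 for the 33 genes and 0.038 and 0.10 for the 28 mitochondrial genes. By role they were 0.0031 and -0.0086 (large subunit), 0.017 and 0.12 (small subunit), 0.61 and 0.58 (translation factors), -0.052 and 0.0092 (complex I), 0.14 and 0.24 (complex III), 0.31 and 0.40 (ATP synthase), 0.16 and 0.13 (TIM and TOM), 0.12 and 0.13 (Hspd1), 0.31 and 0.30 (prohibitins and porins) and 0.30 and 0.39 (ending s2). Genes that turned lower under both included Haus2 (-0.32, -0.39), Mrpl17 (-0.35, -0.36), Mrpl2 (-0.0057, -0.013), Mrpl28 (-0.34, -0.25), Mrpl38 (-0.13, -0.14), Mrps30 (-0.37, -0.28), Phb (-0.19, -0.13), Slc25a11 (-0.18, -0.15) and Timm10 (-0.17, -0.14). Ndufa9 (-0.052) and Uqcrc2 (-0.0096) did so with an equal median only, and Mrpl45 (-0.0043) with quantiles only. Both rescalings subtract the shared rise by construction. With a pseudocount of 10, which shrinks low genes, medians were 1.07 (large subunit), 0.87 (small subunit), 1.31 (translation factors), 0.90 (TIM and TOM), 1.18 (Hspd1), 1.15 (prohibitins and porins) and 0.97 (ending s2). In the 250 bases before the start alone, the share with YY1 letters fell from 9.09% to 0%. The planned N-terminal charge of the proteins was not run. Libraries whose exact depth is not known limit genes with few reads, such as Mrps2.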
